A study of Sus scrofa with 4 samples.

Results

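In the lung library of the Tibetan pig, 14010 gene models reached 1 RPKM or more, out of 18367 models with at least 1 read in any of 4 libraries. RPKM is a read count divided by the length of the model and by the total of the library. The lung models were compared with heart, liver and kidney libraries of the same breed, with 1 library per tissue. A model without an entry for a tissue was taken as having 0 reads there. The labels give the breed, its place of origin and the tissue, while age, sex, number of pigs and any treatment are not given here by the sources used. With no replicates, every value describes these libraries, no difference has a test, and the 95% intervals on reads cover counting error only. Intervals on shares of models treat the models as independent draws and carry no error of reads or animals. The identifiers do not carry gene names, so the tissue label could not be checked against lung markers and no gene function is given. Every comparison below uses the same lung library, so the comparisons are not independent of each other.

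Lung tissue is a mixture of cell types. A thin epithelium carries out gas exchange, and its surfactant-producing cells make the lipids and proteins that keep the air spaces open. A dense capillary bed, airway epithelium with ciliated and secretory cells, connective tissue and resident immune cells make up much of the rest. Heart, liver and kidney have vessels and connective tissue as well, and each is known for a dominant working cell: the contractile muscle cell, the hepatocyte and the tubule epithelial cell. In a whole-tissue library, fewer cells of a type and less RNA per cell cannot be told apart.

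The lung library held 8853076 reads on gene models, against 14062622 in heart, 5486480 in kidney and 4090775 in liver. For a model of the median length of 1278 bases, 1 RPKM was 11.3 reads in lung, 18.0 in heart, 7.01 in kidney and 5.23 in liver. The deposited RPKM placed most lung models above their level in the other libraries. Of the 18367 models, 15357 reached 1 RPKM in some library. Over these, the median log2 ratio of lung was 0.66 to heart, 1.15 to liver and 0.19 to kidney, each computed on RPKM + 1. Dividing each library by its median ratio to the geometric mean of the 4 (median-ratio scaling) reduced these shifts to 0.18, 0.24 and 0.08. Results are therefore given under both scalings where the difference matters.

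The bulk of the lung library lay at middle levels. Models at 10 to 100 RPKM numbered 8038, which was 57.4% of the lung models, and they took 48.4% of lung reads (95% Clopper-Pearson interval 48.4 to 48.5). Models at 100 to 1000 RPKM numbered 1043 and took 34.1% of the reads (34.1 to 34.2). Only 79 models reached 1000 RPKM, and these took 13.2% (13.2 to 13.3). Below 10 RPKM there were 4850 models, 34.6% of the lung models, with 4.02% of the reads (4.00 to 4.03). The share of detected models lying at 1 to 10 RPKM was 36.5% in kidney, 42.7% in heart and 50.8% in liver. These shares too are by deposited RPKM. After median-ratio scaling 5710 of 13598 lung models lay at this level, and the other tissues are not given under it.

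Lung was more often the highest of the 4 libraries among models of high level than among models of low level. Of all 14010 lung models, 6887 (49.2%) were highest in lung, 4058 (29.0%) in kidney, 2241 (16.0%) in heart and 824 (5.88%) in liver. Lung was highest for 43.5% of models at 1 to 2 RPKM, 40.4% at 2 to 5 and 42.7% at 5 to 10. This share was 51.9% at 10 to 100 RPKM, 59.2% at 100 to 1000 and 72.2% at 1000 or more. The strata are set by the lung value itself, so the order of these shares is a description only. After median-ratio scaling the same strata had 36.1%, 32.1%, 31.3%, 37.5%, 45.4% and 55.7% of models highest in lung. Lung was the lowest of the 4 libraries for 1351 models (9.64%), from 13.2% of those at 5 to 10 RPKM to 3.80% of those at 1000 or more.

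**Figure D1:**
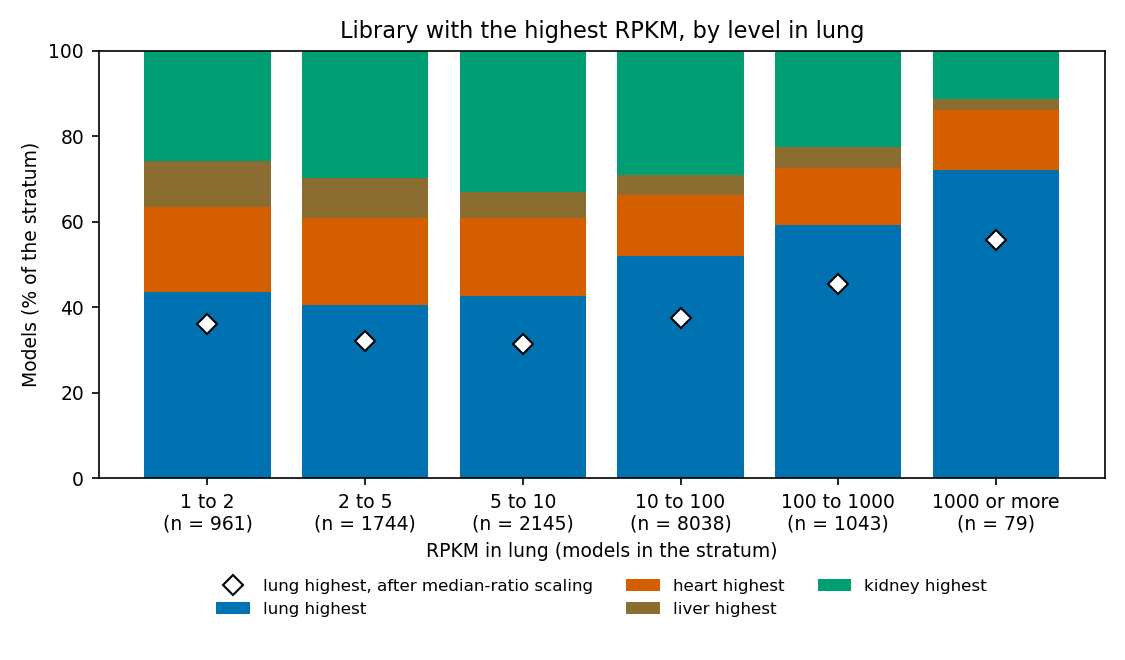
Stacked bars give the percent of lung models whose highest RPKM lay in lung, heart, liver or kidney (y axis), for 6 strata of RPKM in lung (x axis, number of models below each bar), with 1 library per tissue. Diamonds give the percent highest in lung after median-ratio scaling. The lung part of the bars is 43.5% at 1 to 2 RPKM and 72.2% at 1000 or more, and the diamonds lie below it in every stratum.

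The 79 models at 1000 RPKM or more in lung were a mixture of models high everywhere and models high in lung. For 16 of them, every other library was also at 1000 RPKM or more, and for 38 no other library was. In 37 of the 79, lung and the highest other library differed less than 2-fold on the RPKM + 1 scale. The model with the highest value stood at 18488 RPKM in lung, 8376 in kidney, 4778 in heart and 4706 in liver. It was thus high in all 4 libraries. These models were short, with a median length of 573 bases against 1344 for all lung models. Of the 79, 36 were under 500 bases long.

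The compared tissues differed in how many lung models they shared. Kidney reached 1 RPKM for 12385 of the 14010 lung models (88.4%), heart for 11860 (84.7%) and liver for 10963 (78.3%). Over all 15357 models the order was the same, with 13208 detected in kidney, 12455 in heart and 11470 in liver. The order is thus not particular to the lung models. All 4 libraries reached 1 RPKM for 10247 lung models (73.1%). Detected in 2 of the other libraries were 1675 lung models, in 1 were 1117 and in none 971. No read at all was found for 1118 lung models in liver, 466 in kidney and 459 in heart. The liver library was also the shallowest.

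At a 5-fold difference on the RPKM + 1 scale, lung stood above liver in more models than above heart or kidney. Of the 15357 models, 3258 (21.2%) were higher in lung and 741 (4.83%) higher in liver. In the comparison with heart, 1793 (11.7%) were higher in lung and 769 (5.01%) in heart. With kidney, 1521 (9.9%) were higher in lung and 1120 (7.29%) in kidney. All models called higher in lung were among the 14010, since this fold requires a lung level above 1 RPKM. Among the 14010, liver was at least 5-fold higher in 460 (3.28%), heart in 509 (3.63%) and kidney in 750 (5.35%), shares that lie below the background because models low in lung are left out by the threshold. Median-ratio scaling gave 1580 lung models higher than liver and 946 lower. Under it 1176 were higher than heart and 744 lower, and 1232 were higher than kidney and 779 lower. Under 2-fold apart were 51.3% of the lung models for kidney, 46.3% for heart and 32.7% for liver, or 53.6%, 54.4% and 46.9% after median-ratio scaling.

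Low-level models in lung fell into a part that was low in all 4 libraries and a part that was well expressed elsewhere. Of the 4850 models at 1 to 10 RPKM, 3146 (64.9%) were under 10 RPKM in every library. The other 1704 reached 10 RPKM in another library: 1216 in kidney, 823 in heart and 619 in liver, with some models counted in more than 1 tissue. Kidney was thus the library in which most of them reached 10 RPKM. Over all models too, kidney detected the most of the 3 tissues (13208, against 12455 in heart and 11470 in liver). It also had the smallest share of its detected models at 1 to 10 RPKM (36.5%, against 42.7% and 50.8%). The lead of kidney is therefore not particular to these models, and counts after median-ratio scaling are not given. At 100 RPKM or more the order was different, with 131 in liver, 115 in kidney and 86 in heart. At 1000 RPKM or more there were 44 low-level lung models, 32 of them in liver, 8 in heart and 6 in kidney, and some of these were again shared. At least 5-fold higher in another library were 750 (15.5%): 435 in kidney (8.97%), 284 in liver (5.86%) and 275 in heart (5.67%). These shares lie near the background of 7.29%, 4.83% and 5.01% over all 15357 models.

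Detection in the other libraries also varied along the low range. Of models at 1 to 2 RPKM in lung, 48.4% reached 1 RPKM in kidney, 36.1% in heart and 28.1% in liver, and 13.0% were detected in all 4 libraries. At 5 to 10 RPKM these shares were 86.4%, 82.7%, 68.4% and 62.2%. Lung was at least 5-fold above every other library for 109 low-level models, the lowest of them at 4.06 RPKM in lung, since a model below 4 RPKM cannot reach that fold on the RPKM + 1 scale.

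Counting error was largest at the bottom of this range. The median number of lung reads was 15.0 per model at 1 to 2 RPKM, 38.0 at 2 to 5 and 88.0 at 5 to 10. At 1 to 2 RPKM, 318 of 961 models had under 10 reads, and the median 95% Poisson interval spanned 54.5% of the value either side. The lower limit of the lung interval was at or above 1 RPKM for 267 of these 961 models, for 1685 of the 1744 at 2 to 5 RPKM and for all 2145 at 5 to 10. Presence at 1 RPKM in lung was therefore not settled by depth for most models of the lowest stratum.

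Detection in lung alone was mainly a matter of low-level models. Of the 971 models at 1 RPKM or more in lung and under it in the 3 other libraries, 795 (81.9%) were under 10 RPKM in lung, with a median of 3.00 RPKM and 40.0 reads over all 971. They made up 35.6% of models at 1 to 2 RPKM, 17.4% at 2 to 5, 6.95% at 5 to 10 and 2.00% at 10 to 100. Models detected in a single tissue were 6.93% of those detected in lung, 3.02% in kidney, 2.57% in heart and 1.49% in liver. These shares rest on the deposited RPKM, which lay higher in lung. After median-ratio scaling 801 of 13598 lung models were detected in lung only, and the shares of the other tissues are not given under it. Most of the 971 had some reads elsewhere, and 147 had none in the 3 other libraries. Reads were lacking in liver for 565, in kidney for 353 and in heart for 270. The depth placed 310 of the 971 under 1 RPKM in all 3 other libraries by the upper 95% limit, and 249 of these had a lower limit in lung of 1 RPKM or more. These 249 were longer than the rest, with a median of 2295 bases against 1239 for all 971, since a long model collects more reads at the same RPKM.

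Another group was under the threshold in lung. In 1347 models lung was under 1 RPKM and any other library was not, which asks less than detection in a single tissue. Of the 1347, 422 had 0 lung reads. Kidney detected 823 of the 1347, heart 595 and liver 507. Over all 15357 models these libraries had the same order, with 13208, 12455 and 11470 detected. At 10 RPKM or more in another library there were 582 of the 1347, and the share over all models is not given. The median length of the 1347 was 1005 bases. Pair by pair, the opposite case was more frequent: 1625 lung models were under 1 RPKM in kidney, 2150 in heart and 3047 in liver.

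Length did not order the level of lung models but did order the position of lung among the 4 libraries. The median lung level lay between 16.3 and 17.9 RPKM in each of 6 length ranges, while the upper quartile was 50.6 RPKM for models under 500 bases and 31.9 RPKM for models of 8000 bases or more. Lung was the highest library for 38.0% of the 1629 lung models under 500 bases, 41.1% of 3232 at 500 to 1000, 48.3% of 5032 at 1000 to 2000, 58.1% of 3110 at 2000 to 4000, 68.9% of 851 at 4000 to 8000 and 75.0% of 156 at 8000 or more. It was the lowest for 21.4%, 13.7%, 8.27%, 4.08%, 1.76% and 0.641% of the same ranges. The order with length was also seen after median-ratio scaling, from 29.5% to 57.1% highest in lung, and after scaling the per-length values of each library to the same sum (TPM-like scaling), from 42.9% to 78.8%.

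Within ranges of lung level, the share was also higher at 4000 to 8000 bases than under 500, though not every step followed the order. Among models at 1 to 10 RPKM, lung was highest for 36.2%, 39.2%, 38.7%, 50%, 56.1% and 60.4% of the ranges from the shortest to the longest. At 10 to 100 RPKM these shares were 36.2%, 40.3%, 51.7%, 61.2%, 73.9% and 82.4%. At 100 RPKM or more they were 49.3%, 51.3%, 66.3%, 76.4%, 80.5% and 66.7%, and the last of these rests on 6 models. In the other tissues the share of the 15357 models that were highest there was lower in the longest range than in the shortest. It was 33.8% and 12.7% for kidney, 26.2% and 15.7% for heart and 7.88% and 1.20% for liver. For lung it was 32.1% and 70.5%. These shares sum to the whole in each range and are not independent.

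The median ratio to each tissue moved with length as well, most for liver and kidney. From the shortest to the longest range, the median log2 ratio of lung to liver was 0.92, 1.02, 1.28, 1.48, 1.72 and 2.04. Against kidney the medians were -0.05, 0.01, 0.28, 0.49, 0.81 and 1.12. Against heart they were 0.44, 0.66, 0.83, 0.88, 0.96 and 0.88, so that the longest range lay no higher than the one at 2000 to 4000 bases. The sign in the short models depended on the scaling. Under 500 bases, the medians after median-ratio scaling were -0.06 to heart, -0.06 to liver and -0.16 to kidney, and after TPM-like scaling they were 0.58, 1.05 and 0.20. At 8000 bases or more all 3 medians were above 0 under each scaling, at 0.37 to heart, 1.10 to liver and 0.92 to kidney after median-ratio scaling. The quartiles overlapped widely between ranges: against kidney they were -1.24 and 1.21 under 500 bases and 0.46 and 1.76 at 8000 or more.

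**Figure D2:**
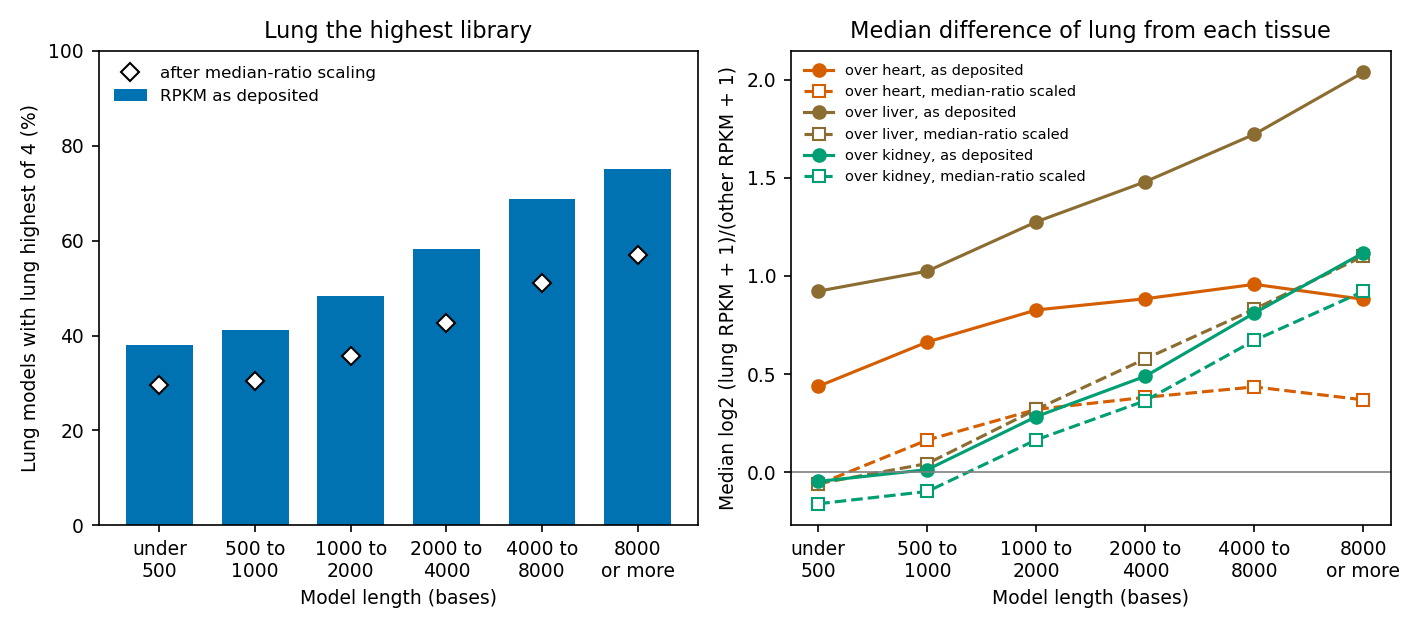
The left panel gives the percent of lung models with lung the highest of 4 libraries (y axis) by model length in bases (x axis), as bars for RPKM as deposited and diamonds after median-ratio scaling. The right panel gives the median log2 ratio of lung to heart, liver and kidney on the RPKM + 1 scale (y axis) for the same ranges, as filled circles as deposited and open squares after median-ratio scaling. The bars go from 38.0% under 500 bases to 75.0% at 8000 or more.

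The reads of the libraries were spread differently over model lengths. The model at which the reads of a library, ordered by model length, reached 50% was 1902 bases long in lung, 1686 in heart, 1584 in liver and 1536 in kidney. Models of 4000 to 8000 bases took 16.1% of lung reads, 16.4% of heart, 9.61% of liver and 7.83% of kidney reads. Models of 8000 bases or more took 5.18% of lung, 8.79% of heart, 2.07% of liver and 3.16% of kidney reads, so the heart share of the longest models was above that of lung. Models under 500 bases took 6.43% of lung, 8.11% of heart, 6.15% of liver and 9.10% of kidney reads. No value for RNA quality or fragment length was at hand, and their part in these differences was not tested. Of the lung models, 90.4% had a length that is a multiple of 3, as coding sequences have, so most lengths leave out untranslated regions.

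Models called lung-enriched had 10 RPKM or more in lung and an RPKM + 1 at least 5 times that of the highest other library. There were 674, which is 4.39% of the 15357 models and 7.36% of the 9160 models at 10 RPKM or more in lung. The same rule called 2.49% in heart, 2.4% in kidney and 1.87% in liver. These shares rest on the deposited RPKM, which lay higher in lung. After median-ratio scaling 358 lung-enriched models were called, and the shares of the other tissues are not given under it. The 674 models made up 6.32% of models at 10 to 100 RPKM in lung, 14.0% at 100 to 1000 and 25.3% at 1000 or more. Unlike the position of lung among the libraries, enrichment did not become more frequent in long models. It applied to 4.88% of the 1928 models under 500 bases that were detected in any library, 4.47%, 4.72%, 3.71% and 3.66% of the following ranges and 3.61% of the 166 at 8000 bases or more. The median enriched model was 1200 bases long, and 44.7% were longer than the median of the 15357 models (interval 40.9 to 48.5), against 58.6% of all models highest in lung (57.5 to 59.8).

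Most lung-enriched models were only moderately above the next library. The median ratio was 8.54 on the RPKM + 1 scale, and 403 of the 674 (59.8%) lay between 5-fold and 10-fold, 255 between 10-fold and 100-fold and 16 (2.37%) at 100-fold or more. In heart, liver and kidney the enriched models at 100-fold or more were 14.9%, 25.4% and 11.7%. Near the limit, the models just inside stood at 31.8 RPKM in lung against 5.54 elsewhere and 38.8 against 6.94. Those just outside stood at 32.6 against 5.74 and 68.5 against 13.0. At 10 RPKM or more in lung, 140 models had a ratio of 5 to 6 and 194 a ratio of 4 to 5, so the limit cuts through a continuous range. The interval of the plain RPKM ratio lay wholly at 5 or more for 549 of the 674, counting 24 without reads elsewhere. Of the 674, all 4 libraries detected 312 (46.3%) at 1 RPKM, and 176 were detected in lung alone. Over all 9160 models at 10 RPKM or more in lung, 8142 (88.9%) were detected in all 4. The rule itself makes for this difference. It calls every model at 10 RPKM or more in lung and under 1 RPKM elsewhere. The 10 enriched models of most reads held 27.1% of all reads on enriched models, and 50 held 57.7%.

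The tissue next highest after lung was kidney for 255 enriched models, heart for 244 and liver for 151, with 24 models lacking reads in the 3 others. Of the 650 with reads elsewhere, kidney was next for 39.2% (35.5 to 43.1), heart for 37.5% (33.8 to 41.4) and liver for 23.2% (20.04 to 26.7). The intervals of kidney and heart overlap, but they treat models as independent draws and do not decide the order. Heart came before kidney under several other settings. Heart and kidney had 42.1% and 36.1% after TPM-like scaling, 39.1% and 36.6% with all libraries thinned to the liver total, 42.5% and 39.3% at a 3-fold minimum and 38.1% and 32.0% at a 10-fold minimum. They had 37.3% and 37.1% among models listed for all 4 libraries. Among all models highest in lung with reads elsewhere, of which there were 6740, kidney was next for 52.8%, heart for 36.9% and liver for 10.3%. Against that background, liver followed lung more often in the enriched set and kidney less often. These enriched models are part of the 6740, and no test was made of the difference.

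Of the settings tried, only median-ratio scaling put liver first, and the intervals of liver and heart overlapped under it. After median-ratio scaling liver was next highest for 133 enriched models (38.9%, 33.7 to 44.3), heart for 124 (36.3%, 31.2 to 41.6) and kidney for 85 (24.9%, 20.4 to 29.8), and the background over models highest in lung became 25.6%, 42.6% and 31.8%. Liver thus lay above its background and kidney below it under both scalings. Of the 650 models, 185 changed their next-highest tissue with the scaling: 89 from kidney to liver, 53 from heart to liver and 43 from kidney to heart. The 358 models enriched after median-ratio scaling were all among the 674. Those kept had a median ratio of 12.8 as deposited, and the 316 lost had one of 6.39.

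**Figure D3:**
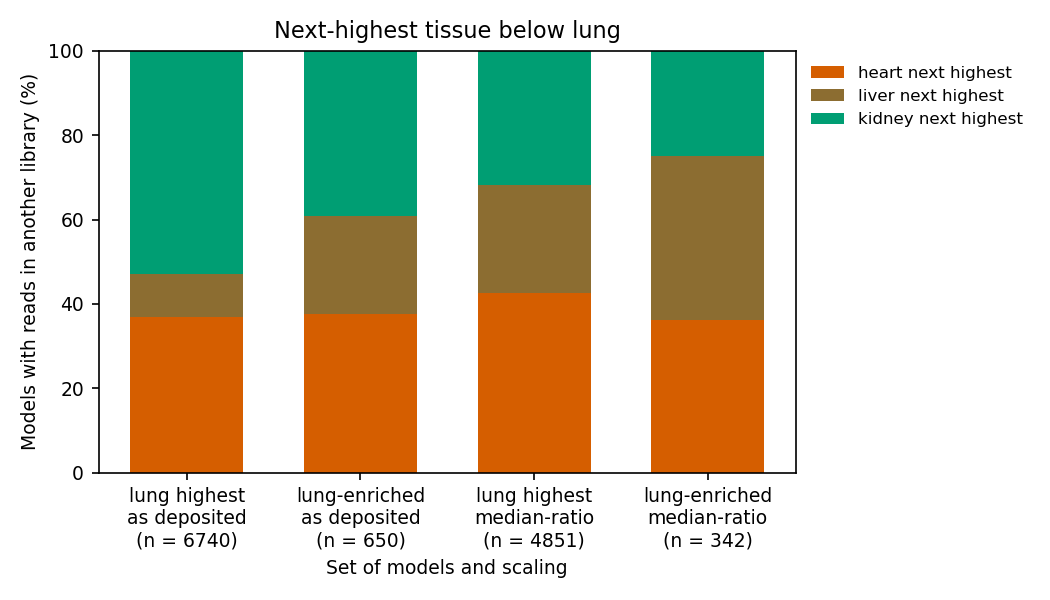
Stacked bars give the percent of models with heart, liver or kidney next highest after lung (y axis), among models with reads in another library, for all models highest in lung and for lung-enriched models under each scaling (x axis, with the number of models). The liver part is 10.3% and 23.2% as deposited and 25.6% and 38.9% after median-ratio scaling.

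The next-highest library was often not separated from the remaining ones. Only 83 of the 244 models with heart next, 90 of the 255 with kidney and 50 of the 151 with liver had a next-highest value above the following library by the counting interval of their ratio. A next-highest value at least 5 times the following library on the RPKM + 1 scale was found for 4, 6 and 6 models. Median levels in the next-highest library were 3.52 RPKM for heart, 2.94 for kidney and 3.62 for liver, at medians of 71, 20 and 19 reads. Fewer than 10 reads stood behind that value in 40, 85 and 46 models. The next-highest tissue of an enriched model was thus in most cases a low level close to that of another library.

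The groups by next-highest tissue differed somewhat in lung level. With liver next, the median lung level was 54.1 RPKM (quartiles 25.9 and 170), with heart 40.6 (20.1 and 113) and with kidney 35.1 (17.6 and 81.5). Liver was next for 14.9% of enriched models at 10 to 20 RPKM, 22.3% at 20 to 50, 31.3% at 50 to 100, 25.7% at 100 to 1000 and 40.0% of the 20 at 1000 or more. Kidney was next for 48.8% at 10 to 20 RPKM and 35.0% at 1000 or more. Of the 16 models at 100-fold or more, liver was next for 9, kidney for 3 and heart for 2, and the remaining 2 had no reads elsewhere. Median lengths were close, at 1179 bases with liver next, 1242 with heart and 1251 with kidney. In the reverse direction, lung was next highest for 168 of 382 heart-enriched, 128 of 287 liver-enriched and 177 of 368 kidney-enriched models. Kidney was close to lung, being next for 153 of the heart-enriched and 122 of the liver-enriched models. Among the kidney-enriched models liver was next for 114 and heart for 60. These splits are by deposited RPKM, which lay higher in lung, and are not given after median-ratio scaling.

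**Figure D4:**
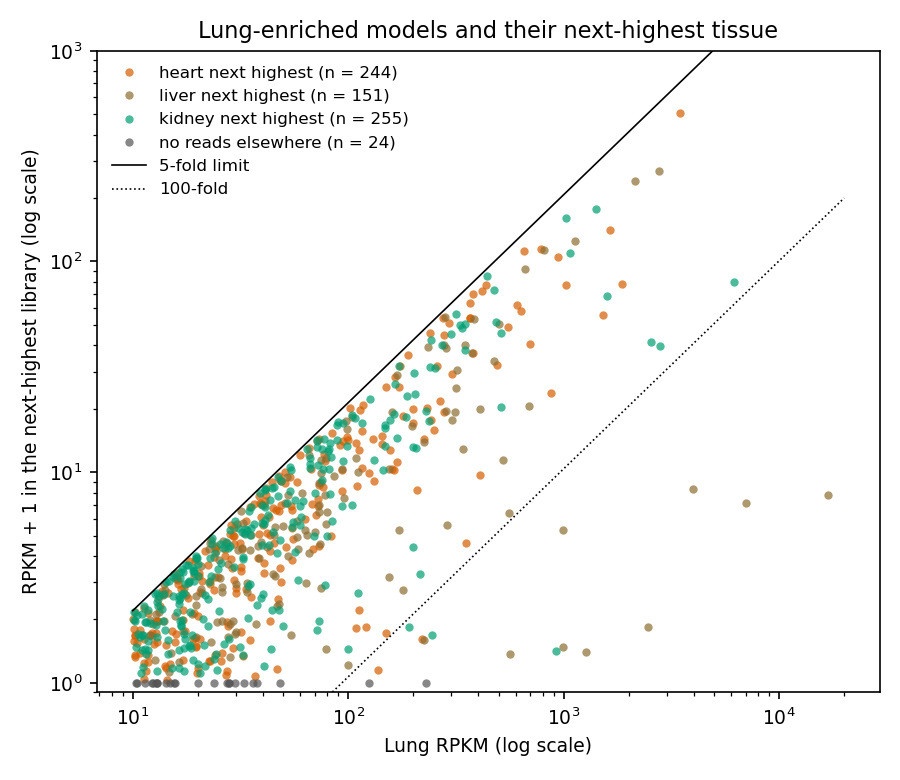
Each point is a lung-enriched model, by its RPKM in lung (x axis, log scale) and its RPKM + 1 in the next-highest library (y axis, log scale), coloured by that library, with 1 library per tissue. The solid line is the 5-fold limit and the dotted line 100-fold. Most points lie near the 5-fold limit, and 9 of the 16 at 100-fold or more have liver next highest.

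With heart next highest, evm.model.scaffold24270.3 (645 bases) had the highest lung level. It stood at 3469 RPKM in lung, 504 in heart, 499 in kidney and 188 in liver. Lung was 6.89-fold above heart (6.67 to 7.11), and heart and kidney did not differ beyond their counting intervals (489 to 519 and 476 to 523). In evm.model.scaffold28967.1 (391 bases) the values were 1869 RPKM in lung, 77.3 in heart, 44.8 in kidney and 6.25 in liver, and lung was 24.2-fold above heart (21.9 to 26.7). Both were thus present in all 4 libraries, with liver the lowest. Of the 444 lung models for which heart was the highest library and at least 5-fold above lung, evm.model.scaffold46301.10 stood at 15910 RPKM in heart, 15.3 in lung (12.2 to 18.9), 12.3 in kidney and 1.15 in liver. In evm.model.scaffold37089.5 the values were 15086 RPKM in heart, 6.28 in lung (4.14 to 9.13), 4.50 in kidney and 1.01 in liver. Heart was 1042-fold and 2404-fold above lung in these models, and the lung and kidney intervals overlapped in each.

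With liver next highest, evm.model.scaffold24645.7 (573 bases) ranked 1 in the lung library by reads and 2 by RPKM, and it held 0.962% of lung reads. Its level was 16784 RPKM in lung and 6.83 (3.90 to 11.1) in liver. Kidney stood at 4.77 (2.67 to 7.87), while heart stood at 0.496 (0.135 to 1.27). Liver and kidney overlapped and heart was below both. In evm.model.scaffold45520.21 (240 bases) lung reached 7034 RPKM, liver 6.11 (2.24 to 13.3) and kidney 3.80 (1.23 to 8.86), from 6 and 5 reads. Heart had 0 reads, and against a floor of 3 counts in that library lung was 7913-fold higher. This is not a lower bound, since the upper limit of heart was 1.09 RPKM and the floor 0.889 RPKM. The ratio of lung to liver was 2459-fold (1514 to 4302) in the first of these models and 1151-fold (529 to 3137) in the other. In the other direction, liver was the highest library and at least 5-fold above lung for 295 lung models. Of these, evm.model.scaffold27953.4 (1860 bases) stood at 59403 RPKM in liver, 63.6 in lung, 8.23 in kidney and 1.64 in heart. The values of evm.model.scaffold8242.32 (291 bases) were 33037 RPKM in liver, 573 in kidney, 51.6 in lung and 0.733 in heart. Lung was above kidney in the first and below it in the second.

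With kidney next highest, evm.model.scaffold46838.1 (378 bases) stood at 6182 RPKM in lung, 79.1 in kidney (67.4 to 92.2), 77.0 in liver (63.8 to 92.1) and 68.9 in heart (62.0 to 76.3). The 3 other libraries did not differ beyond their intervals. In evm.model.scaffold18475.3 (975 bases) the values were 2803 RPKM in lung, 38.7 in kidney, 9.48 in heart and 4.51 in liver, and here kidney was above both. Lung was 78.2-fold (67.0 to 91.7) and 72.4-fold (63.2 to 83.5) above kidney. By deposited RPKM, kidney was the highest library and at least 5-fold above lung for 559 lung models, the most of the 3 tissues. This count is not given after median-ratio scaling. Under it, lung models at least 5-fold lower than a tissue numbered 946 for liver, 779 for kidney and 744 for heart, whichever library was highest. Of the 559, evm.model.scaffold42338.8 (219 bases) stood at 37344 RPKM in kidney, 342 in lung, 177 in liver and 78.6 in heart. The values of evm.model.scaffold48410.1 (322 bases) were 25696 RPKM in kidney, 436 in lung, 139 in liver and 71.6 in heart. In both, lung was the next library below kidney, which was 109-fold and 59.0-fold higher.

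**Figure D5:**
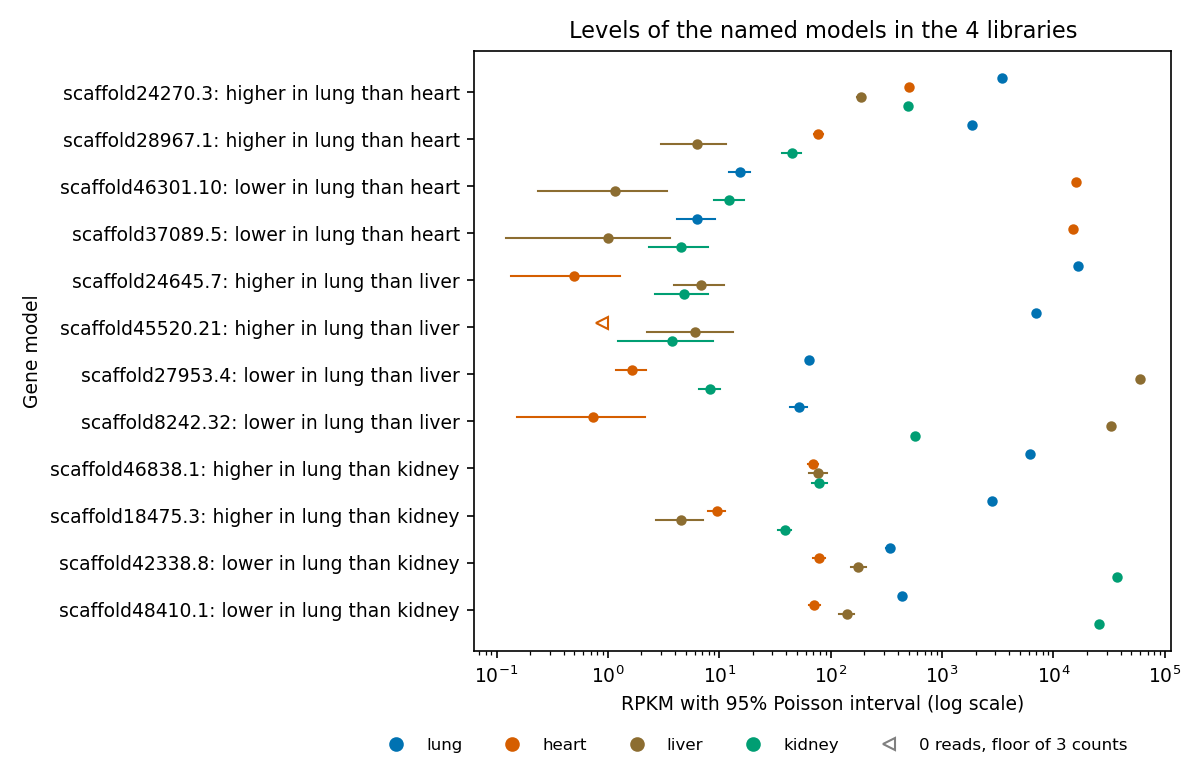
Each row is a named gene model, and each dot is its RPKM in the lung, heart, liver or kidney library (x axis, log scale) with its 95% Poisson interval, which is narrower than the dot at high levels. The open triangle marks the floor of 3 counts for a library with 0 reads. Lung lies to the right of the other libraries in the 6 models chosen as higher in lung and left of the compared tissue in the 6 chosen as lower.

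Lung-enriched models had a lung-enriched neighbour on the scaffold more often than other models did. Neighbours were models of the same scaffold whose numbers differ by 1, both detected in some library. Of 547 lung-enriched models with such a neighbour, 86 (15.7%) had a lung-enriched neighbour, against 723 of 12316 other models (5.87%). The corresponding shares were 12.8% and 2.97% in heart, 23.1% and 2.31% in liver and 15.4% and 3.27% in kidney. No test was made, and models split from a single gene could not be told from separate genes. Most lung neighbours were pairs: there were 40 runs of 2 and 2 runs of 3, on a total of 470 scaffolds with a lung-enriched model. In the run that starts at evm.model.scaffold40160.2, lung lay between 27.1 and 48.2 RPKM, heart was next highest for 2 of the 3 models, and the remaining model had no reads elsewhere. In the run that starts at evm.model.scaffold42429.3, lung lay between 35.1 and 353 RPKM, and kidney, liver and heart were each next for 1 model. These runs were picked for their length after the values were seen.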

How the data were processed

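Per the labels' protocols, Trizol was used for total RNA and a TruSeq kit for the libraries. TopHat, which aligns reads across splice junctions, is named in the submitters' processing notes. Counter, strand setting, build and annotation are, in the sources used here, not given. The authors deposited, per library, a raw read count per gene model, the RPKM, the model length and the library total. The sum of the deposited counts was that total, and the deposited RPKM was recovered from count, length and total (relative tolerance 1e-12).

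From these, models were joined by identifier, with missing models as 0. Of 18367 identifiers, 0 matched the pig gene name tables, so no marker list could be read and no sequence is shown. Folds used for calls, fold ranges and medians are on RPKM + 1, which understates the change of low models. Folds printed for the named models are plain RPKM ratios. Intervals are exact: Clopper-Pearson for shares and for ratios of 2 counts, and Poisson for single counts. Those on reads cover counting error only, as reads carry no molecular identifiers. Those on shares of models take each model as a draw, although models are not replicates of a tissue. Median-ratio factors, over 10247 models above 1 RPKM in all 4 libraries, were 1.38 for lung, 0.927 for heart, 0.614 for liver and 1.27 for kidney. For each other tissue, the 2 lung-enriched models of highest lung RPKM with that tissue next, and the 2 lung models of highest RPKM there (highest of 4, 5-fold above lung), were named. Models, limits and named rules were chosen with earlier results of these data known. The calling rules were run on simulated Poisson libraries with changes set away from the 5-fold limit. That run says nothing on models near the limit. Computation used scipy 1.17.1, numpy 2.4.6 and pandas 2.3.3 under Python 3.11.15, and figures matplotlib 3.10.9.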

Additional observations from a re-analysis of the deposited data

How the results depend on the processing

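No paired analysis was possible because there was only 1 library per tissue, and leaving out a replicate was impossible for the same reason. Detection at 0.5 or 2 RPKM, TPM-like scaling, thinning to 4090775 reads and a minimum lung level of 1 RPKM moved no count by over 1.5 times. Median-ratio scaling gave 358 lung-enriched models (from 674), 124 with heart next (from 244) and 85 with kidney next (from 255). Under it lung was above heart in 1176 models (from 1793) and above liver in 1580 (from 3258), liver was above lung in 1289 (from 741), and 40.8% of enriched models were longer than the median tested model (from 44.7%). A 3-fold minimum gave 1223 enriched models, 510 with heart and 471 with kidney next, and 50.4% longer than the median. It gave 3568 higher in lung than in heart and 1238 lower (from 769), 5679 higher than in liver, and 2714 higher than in kidney (from 1521) and 1933 lower (from 1120). A 10-fold minimum gave 271 enriched models, 94 with heart, 74 with liver (from 151) and 79 with kidney next. It gave 744 higher in lung than in heart and 445 lower, 1306 higher than in liver and 485 lower, and 583 higher than in kidney and 579 lower. A pseudocount of 0.1 gave 3003 higher than in heart, 5097 higher than in liver and 2435 higher than in kidney. Restricting to models listed in all 4 files left 297 detected in lung only (from 971). The cause of each move was not tested, beyond the lower or higher fold and the fewer models that these settings impose. For the named models, 59 log2 ratios were recomputed and 0 changed sign. These models were picked as at least 5-fold apart, so the sign could hardly change and its constancy shows little. In 43 the move was at most 0.5 times the width of the log2 counting interval, and in 16 it was larger. The 43 include the ratios among models listed in all 4 files, which that setting cannot alter. Depth limits low values most in liver, and next-highest values rest on few reads.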
